A study of Homo sapiens with 15 samples.

Results

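The gene set holds 10 genes of the IL-1, IL-6 and NF-kB feedback circuit: IL1A, IL1B, IL6, LIF, NFKBIA, NFKBIZ, TNFAIP3, BIRC3, ICAM1 and RELB. The rule took them by symbol, and all 10 were listed in the expression tables of both cell lines, among 16296 genes for CAKi-1 and 16188 genes for 786O. The tables came from sequencing of poly(A) RNA in 15 libraries of 2 human lines of clear cell renal cell carcinoma (ccRCC), made to see how the transcriptome changes when angiopoietin-like 4 (ANGPTL4), a secreted inhibitor of lipases, is lost. CAKi-1 had 4 libraries of wild-type genotype (WT) and 5 of ANGPTL4 KO, and 786O had 3 of each genotype. The KO cells of each line were single clones that had lost ANGPTL4 mRNA after CRISPR-Cas9 editing, mixed together, so a KO group is a mixture of selected clones and not a whole edited population. The 786O WT cells were mixed clones that had been through the same editing without the loss, whereas the sources differ on CAKi-1 WT, which the series text also describes as mixed clones and the paper as parental cells. All groups were harvested in log phase with no stimulus stated, in RPMI according to the labels and in DMEM according to the paper. The replicates are not said to be separate cultures, so each p-value measures the spread among these libraries. Values are TPM, a unit scaled to the length of the transcript and to the library, which keeps no read count, so the depth that each library reached is not in the files, and the labels only state 3000000 reads per sample for every library.

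NF-kB is a family of paired transcription factor subunits that inhibitor proteins of the IkB family hold in the cytoplasm until receptors such as those for IL-1 and TNF activate the IkB kinase complex. The freed subunits switch on cytokines and adhesion molecules, and also the genes of their own inhibitors, so that a pulse of signalling limits itself. IL-6 and LIF act on receptors that share the IL6ST chain and signal through JAK kinases and STAT3, and ccRCC lines are known as producers of IL-6.

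The genotype labels were checked with the edited gene. ANGPTL4 was at 74.9, 83.2, 86.9 and 71.7 TPM in CAKi-1 WT replicates 1 to 4 and at 7.26, 2.87, 2.87, 6.47 and 2.90 TPM in CAKi-1 KO replicates 1 to 5. It was at 20.6, 17.6 and 18.1 TPM in 786O WT replicates 1 to 3 and at 2.19, 2.17 and 1.86 TPM in the 786O KO replicates. Every KO library lay below every WT library of its line, as the labels state, and RNA of the gene was still detected in all KO libraries. The difference was -3.96 on the log2 scale in CAKi-1 (adjusted p 1.2e-05) and -2.69 in 786O (adjusted p 1.57e-06).

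The renal identity of the lines was checked with 10 tubule and ccRCC markers, of which 8 were listed for CAKi-1 and 10 for 786O. PAX8 averaged 172 TPM in CAKi-1 WT and 186 TPM in CAKi-1 KO, and 231 TPM in 786O WT and 152 TPM in 786O KO, while CA9 and PAX2 were missing from the CAKi-1 table. The proximal tubule receptors LRP2 and CUBN were under 1 TPM on average in every group, and VIM was the most abundant renal marker, at 4508 TPM in 786O WT and 3425 TPM in 786O KO. In CAKi-1 PAX8 did not pass, while VIM (3220 to 2287 TPM), KRT8 (1513 to 425 TPM), KRT18 (995 to 342 TPM) and EPCAM (4.22 to 2.79 TPM) passed lower in KO with no overlap. None of 6 lymphocyte markers was listed for either line, and of 10 myeloid markers 6 were listed for CAKi-1 and 5 for 786O, and CD68, which many other cells also express, made up most of their sum. The myeloid sum ran from 58.9 to 61.7 TPM over the CAKi-1 WT libraries and from 53.6 to 65.4 TPM over the CAKi-1 KO libraries, with PTPRC at 0.372 and 0.288 TPM and CSF1R, which passed higher, at 1.51 and 3.35 TPM on average. In 786O it ran from 46.6 to 47.6 TPM in WT and from 21.2 to 22.4 TPM in KO, with PTPRC at 0.208 and 0.272 TPM and CSF1R, which passed lower, at 3.53 and 0.852 TPM. Of 5 endothelial markers only PECAM1 was listed for CAKi-1, with 0.209, 0.315, 0.555 and 0.361 TPM across the WT replicates and 6.17, 1.97, 1.54, 4.46 and 2.32 TPM across the KO replicates, while CDH5, VWF and KDR were listed for neither line. In 786O PECAM1 and TEK summed to between 1.09 and 1.58 TPM in WT and between 0.536 and 0.588 TPM in KO, while the renal markers summed to between 5266 and 6322 TPM in CAKi-1 WT and between 2723 and 3653 TPM in CAKi-1 KO, and to between 5513 and 5708 TPM in 786O WT and between 4215 and 4266 TPM in 786O KO. In 786O CA9 went from 7.54 to 0.287 TPM and EPCAM from 17.4 to 3.12 TPM on average, and PAX2 the other way, from 11.2 to 41.0 TPM. A change in the share of a kind of cell and a change in RNA per cell cannot be told apart in bulk libraries, and the part of these markers in the results on the 10 genes was not tested.

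A few CAKi-1 libraries differed from the rest of their group, though no library passed Dixon's outlier test, given below, for any of the 10 genes. The calls of IL6, NFKBIA and NFKBIZ depend on which libraries are used, while LIF and RELB passed under every alternative tried. WT replicate 4 was the highest of the 4 WT libraries for 10 of the 10 genes, against 27.5% of all genes of the table, and WT replicate 1 was the lowest for 8 of them, against 23.0% of all genes. The highest WT value was 26.9 times the lowest for IL6, 12.5 times for IL1A, 11.3 times for IL1B and 10.0 times for TNFAIP3. It was 5.32 times for BIRC3, 4.67 times for NFKBIA, 4.59 times for ICAM1, 3.09 times for NFKBIZ, 2.45 times for LIF and 1.32 times for RELB. The standard deviation of log2(TPM + 1) over the WT libraries was 1.98 for IL6, the 8th largest of 16296 genes, against a median of 0.09 over all genes. By the same measure IL1A ranked 14, TNFAIP3 25, IL1B 33, ICAM1 35, BIRC3 36, NFKBIA 46, NFKBIZ 88 and LIF 150, so 9 of the 10 genes were among the 150 most variable of the WT group, and RELB ranked 4084. Over the KO libraries the spread was smaller for each gene except RELB, with IL6 at 0.49 and a rank of 404. WT replicate 4 also had the smallest share of TPM in mitochondrial transcripts, 6.39% against 7.76%, 7.78% and 7.88% in the other WT libraries and 8.00%, 6.87%, 6.58%, 7.89% and 7.84% in KO replicates 1 to 5, and the part of that share in the levels of the 10 genes was not tested. In 786O the share was 7.47%, 8.16% and 7.81% in the WT libraries and 10.0%, 9.84% and 9.46% in the KO libraries, with no overlap, and its part in the changes there was not tested either. Over all genes CAKi-1 WT replicate 4 had a median correlation of 0.989 with the rest of its group, against 0.994 in the other WT libraries. Its renal marker sum, 5266 TPM, was the lowest of the WT group. Among the CAKi-1 KO libraries, replicates 1 and 4 had more ANGPTL4 left than the others and the lowest median correlation with the rest of their group over all genes, 0.982 and 0.984 against 0.988 to 0.990. Their renal marker sums, 2723 and 2880 TPM, were the lowest of the KO group. Replicate 1 was the highest KO library for 6 of the 10 genes, against 25.9% of all genes, and replicate 5 the lowest for 6, against 23.7%. The labels give no batch that could be set beside these differences.

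In the limma fit over all genes, with values as log2(TPM + 1), a gene passed the test at an adjusted p of at most 0.05 and was called when its log2 fold change was also at least 1 in size. In CAKi-1 4 of the 10 genes passed higher in KO, IL6, LIF, NFKBIA and NFKBIZ, where 17.9% of all genes did, and 1 passed lower, RELB, where 21.1% did. IL6, NFKBIA and NFKBIZ were called, 3 of 10 against 3.33% of all genes. The groups did not overlap for 2 of the 10 genes, LIF and RELB, against 35.9% of all genes. The median log2 fold change of the 10 genes was 0.85, against -0.01 over all genes. In 786O 1 gene passed higher in KO, LIF, where 27.5% of all genes did, and 4 passed lower, IL1B, IL6, NFKBIA and ICAM1, where 33.5% did. IL6 was the only gene called there, 1 of 10 against 7.62% of all genes, and the groups did not overlap for 6 of the 10 genes, against 66.9%. In CAKi-1 the shares that passed higher and that were called stood above those of all genes, while in 786O the shares of the 10 genes lay near or below them, except that a somewhat larger share passed lower. The 10 genes were chosen with earlier results of these data known, so these comparisons with all genes are a description and no test. The median in 786O was -0.26, against -0.03 over all genes. The pseudocount of 1 understates the change of genes at a few TPM or less, among them IL1A, IL1B, TNFAIP3 and RELB.

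**Figure D1:**
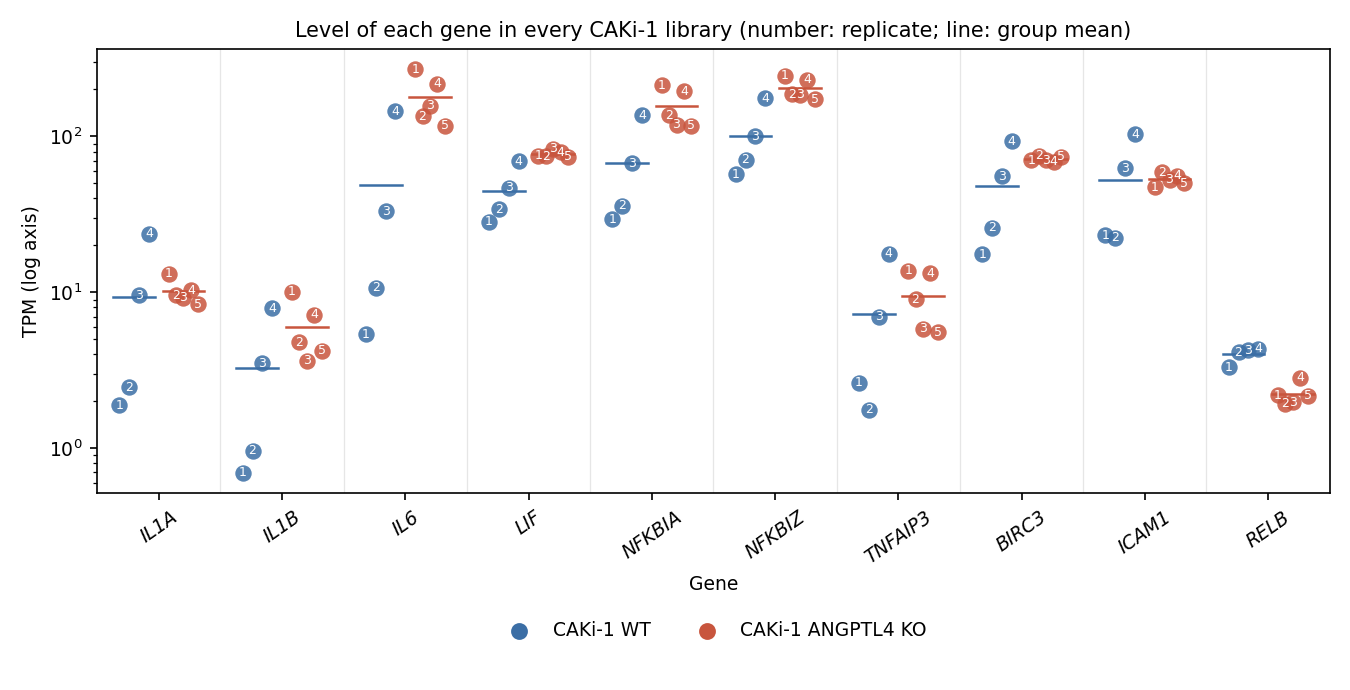
TPM of each of the 10 genes, on a log axis, in every CAKi-1 library, with the replicate number in the point and the group mean as a line. WT replicate 4 is the highest WT point for all 10 genes, and WT replicates 1 and 2 lie below all KO points except for RELB.

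The counts for CAKi-1 changed with the libraries kept. Without WT replicate 4, 8 of the 10 genes passed and 7 were called. That library was the highest WT library for all 10 genes, so leaving it out raises each difference by construction. The larger counts without it, and the genes that newly pass without it, carry no weight as a test. Without WT replicate 2 only 3 passed and 1 was called, and without WT replicate 1 4 passed and 1 was called. Of all 16296 genes 5511 passed and 579 were called without WT replicate 4, 4959 and 507 without WT replicate 2, 5103 and 511 without WT replicate 1, and 6327 and 412 without KO replicates 1 and 4. Without KO replicates 1 and 4, 2 passed, LIF at 0.86 (adjusted p 0.0419) and RELB at -0.72 (adjusted p 6.0e-04), and none was called. In that fit IL6 was at 2.46 (adjusted p 0.0828), and the median of the 10 genes was 0.74. An alternative chosen after seeing the data left out WT replicates 3 and 4 together. Then 9 genes passed higher in KO, against 10.2% of all genes, 1 passed lower, against 13.2%, and 9 were called, against 3.67%, with a median of 1.68. Since those libraries were left out for their high levels of the same genes, the larger differences follow from that choice and carry no weight as a test.

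IL6 encodes the cytokine that gives its name to the family acting through IL6ST (chr7:22725884-22732002, plus strand, GENCODE on GRCh38). It was at 5.38, 10.7, 33.2 and 145 TPM in CAKi-1 WT replicates 1 to 4 and at 269, 134, 157, 217 and 117 TPM in KO replicates 1 to 5. The first 3 WT libraries lay below all KO libraries, while WT replicate 4 lay above KO replicates 2 and 5, so the groups overlapped. IL6 rose by 2.80 ± 0.78 (SE) on the log2 scale in the KO (adjusted p 0.0198), the largest change among the 10 genes, and the exact two-sided permutation test of the genotype labels gave 0.0238. Its 95% interval ran from 1.03 to 4.56, and without WT replicate 2 the difference was 2.44 and no longer passed (adjusted p 0.0608). In 786O the WT values were 29.0, 33.2 and 32.6 TPM, against 13.7, 12.6 and 12.6 TPM in the KO. The 3 KO libraries were all below the 3 WT libraries, and IL6 fell by 1.22 ± 0.06 (SE) (adjusted p 1.49e-05). In this design of 3 against 3 the exact test cannot go below 0.1, the value that IL6, LIF, NFKBIA, NFKBIZ, ICAM1 and IL1B reached. On the opposite strand, exons of IL6 share 428 bases with IL6-AS1, which is not in the tables, and 46 bases with STEAP1B, which is. On that strand ICAM1 shares 815 bases with ICAM4-AS1 and 61 with LIMASI, LIF 86 with LIF-AS1 and 83 with LIF-AS2, BIRC3 126 with ENSG00000288528 and TNFAIP3 95 with WAKMAR2, none of them in the tables, and whether the libraries kept the strand is not stated.

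LIF encodes a cytokine of the same family (chr22:30240453-30246759, minus strand) and was the only one of the 10 genes that passed higher in the KO of both lines in the fit used here, where NFKBIZ in 786O lay just outside the threshold. In CAKi-1 it measured 28.3, 34.1, 46.7 and 69.3 TPM across the WT replicates and 75.1, 74.5, 83.3, 79.0 and 74.2 TPM across the KO replicates. All KO libraries lay above all WT libraries, by a small margin over WT replicate 4, and the KO libraries lay close together. LIF rose by 0.86 ± 0.22 (SE) in CAKi-1 (adjusted p 0.0122), and the exact permutation test gave 0.00794, the smallest value that 4 against 5 libraries allow. Its 786O WT replicates measured 39.2, 39.6 and 38.3 TPM, against 56.9, 60.1 and 55.6 TPM in the KO, again with no overlap, and it rose there by 0.55 ± 0.04 (SE) (adjusted p 7.7e-05). The neighbours of LIF, the 25 expressed genes on each side, had shifted by -0.28 in 786O KO. With their shift taken off, the difference of LIF was 0.82 (adjusted p 2.9e-05).

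IL1A and IL1B encode the agonists of the IL-1 receptor and lie side by side on chromosome 2 (IL1A chr2:112773925-112784493 and IL1B chr2:112829751-112836816, both on the minus strand). IL1A was at 1.89, 2.46, 9.56 and 23.7 TPM in CAKi-1 WT replicates 1 to 4 and at 13.2, 9.57, 9.26, 10.3 and 8.39 TPM in the KO replicates. WT replicate 4 had the highest value of all 9 libraries, and the mean of the groups differed by less than the spread of WT. IL1B measured 0.696, 0.966, 3.51 and 7.90 TPM across the WT replicates and 10.1, 4.79, 3.65, 7.20 and 4.24 TPM across the KO replicates. WT replicate 4 lay above all KO libraries except replicate 1. Neither gene passed the test, with log2 differences of 0.63 ± 0.56 (SE) for IL1A (adjusted p 0.411) and 0.96 ± 0.48 (SE) for IL1B (adjusted p 0.143), and exact permutation values of 0.302 and 0.127. Without WT replicate 4 both passed, at 1.22 (adjusted p 0.0392) and 1.43 (adjusted p 0.0212). The differences shrank without WT replicate 1, to 0.19 for IL1A and 0.63 for IL1B, and without WT replicate 2, to 0.28 and 0.70, and did not pass. In 786O both were under 1 TPM in every library. IL1A was between 0.0430 and 0.165 TPM in the 6 libraries and did not pass (log2 difference -0.02, adjusted p 0.817), and its sign turned under quantile normalization (0.00974). The WT values of IL1B in 786O were 0.188, 0.451 and 0.623 TPM, against 0.0667, 0.0761 and 0.124 TPM in the KO, with no overlap, and the gene fell by 0.37 ± 0.11 (SE) (adjusted p 0.0276). IL1B no longer passed when WT replicate 2 (-0.35, adjusted p 0.0773), WT replicate 3 (-0.27, adjusted p 0.0566) or KO replicate 1 (-0.36, adjusted p 0.0743) was left out. Nor did it pass without KO replicate 2 (-0.36, adjusted p 0.0723) or KO replicate 3 (-0.40, adjusted p 0.0550), and at under 1 TPM its precision at the stated depth is low. With a pseudocount of 0.1 IL1B was at -1.37 (adjusted p 0.0213) and called. The neighbours of both genes had shifted by -0.27 in 786O KO, and the centred values were 0.25 for IL1A (adjusted p 0.0125) and -0.10 for IL1B (adjusted p 0.459). In 786O WT IL1A averaged 0.104 TPM and IL1B 0.421 TPM, where the pseudocount of 1 shrinks any shift in log2(TPM + 1). The shift of the more abundant neighbours is therefore too large to take off either gene, and no conclusion is drawn from these centred values.

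NFKBIA encodes IkB-alpha, the inhibitor that NF-kB itself induces soon after activation (chr14:35401079-35404749, minus strand). It was at 29.4, 35.9, 67.1 and 137 TPM in CAKi-1 WT replicates 1 to 4 and at 212, 137, 118, 195 and 117 TPM in the KO replicates. WT replicates 1 to 3 lay below every KO library, and WT replicate 4 lay above KO replicates 2, 3 and 5. NFKBIA rose by 1.42 ± 0.42 (SE) in CAKi-1 (adjusted p 0.0241), with an exact permutation value of 0.0317. It no longer passed without WT replicate 1 (1.11, adjusted p 0.0663), WT replicate 2 (1.21, adjusted p 0.0725), KO replicate 1 (1.29, adjusted p 0.0513) or KO replicate 4 (1.32, adjusted p 0.0523). In 786O the WT values were 54.0, 58.4 and 54.3 TPM, against 41.0, 40.7 and 39.5 TPM in the KO, with no overlap, a difference of -0.45 ± 0.04 (SE) (adjusted p 2.25e-04). The genes around it were lower in 786O KO as well: the 25 expressed genes on each side had shifted by a median of -0.74, and the 413 genes of chromosome 14 had a median of -0.77. With the median deviation of its neighbours taken off in each library, the difference of NFKBIA turned to 0.29 (adjusted p 0.00305), so its direction in 786O depends on whether it is read against all genes or against its chromosome. Copy number was not measured, and its part in this shift was not tested. In CAKi-1 the same neighbours had shifted by 0.08, and the centred difference was 1.33.

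NFKBIZ encodes an inducible IkB protein of the nucleus that acts with NF-kB on a part of its targets (chr3:101827991-101861022, plus strand). It measured 57.1, 71.0, 100.4 and 176 TPM across the CAKi-1 WT replicates and 245, 186, 185, 231 and 173 TPM across the KO replicates. The groups overlapped only through WT replicate 4, which lay above KO replicate 5. NFKBIZ rose by 1.13 ± 0.29 (SE) (adjusted p 0.0128), with an exact permutation value of 0.0159, and passed without any single library, though at 0.90 it was not called without WT replicate 1 and did not pass without KO replicates 1 and 4 together (0.97, adjusted p 0.0605). In 786O the WT values were 74.5, 71.0 and 71.8 TPM, against 74.9, 85.8 and 82.5 TPM in the KO. All KO libraries lay above the WT libraries, KO replicate 1 barely so, and the difference of 0.16 ± 0.06 (SE) did not pass (adjusted p 0.0557), though it did without that library (0.21, adjusted p 0.0124). It also passed with the filter on low means (adjusted p 0.0451), the variance options (0.0294), quantile normalization (0.0323), median-of-ratios scaling (0.0194) and neighbour-centred values (0.0437), and not with the pseudocount of 0.1 (0.0756) or the replicate block (0.111). Part of its exons, 194 bases, is shared with NXPE3 on the same strand.

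TNFAIP3, a ubiquitin-editing enzyme that shuts off signalling to the IkB kinases, and BIRC3, a ubiquitin ligase of the TNF receptor complex, are induced inhibitors and regulators of the pathway (chr6:137867214-137883314 and chr11:102317484-102339403, both on the plus strand). TNFAIP3 measured 2.64, 1.76, 6.98 and 17.6 TPM across the CAKi-1 WT replicates and 13.8, 9.01, 5.86, 13.3 and 5.54 TPM across the KO replicates. For BIRC3 the WT replicates gave 17.6, 25.9, 55.7 and 93.5 TPM, and the KO replicates 70.5, 74.9, 70.1, 68.7 and 74.0 TPM. For both genes WT replicate 4 was the highest of the 9 libraries, and BIRC3 was nearly level over the KO libraries. Neither passed in CAKi-1, with log2 differences of 0.67 ± 0.53 (SE) for TNFAIP3 (adjusted p 0.352) and 0.84 ± 0.40 (SE) for BIRC3 (adjusted p 0.127), and without WT replicate 4 BIRC3 passed at 1.25 (adjusted p 0.0137). TNFAIP3 in the 786O WT replicates measured 6.28, 4.39 and 4.01 TPM, against 4.09, 2.35 and 1.95 TPM in the KO, where KO replicate 1 reached the WT range. Its difference of -0.66 ± 0.24 (SE) lay at the threshold (adjusted p 0.0503) and passed without KO replicate 1 (-0.89, adjusted p 0.00869), with the replicate block (0.00175), the variance options (0.0341) and the filter on low means (0.0390). Under quantile normalization TNFAIP3 was at -0.44 (adjusted p 0.160), with median-of-ratios scaling at -0.63 (0.0607), with a pseudocount of 0.1 at -0.83 (0.0710) and with neighbour-centred values at -0.51 (0.0957). BIRC3 was between 11.6 and 12.6 TPM in 786O WT and between 9.86 and 12.2 TPM in KO, and did not pass (-0.14), except without KO replicate 2 (-0.21, adjusted p 0.0332). The neighbours of BIRC3 had shifted by -0.36 in 786O, and centred on them its difference was 0.22 (adjusted p 0.0460).

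ICAM1 encodes an adhesion molecule that leukocyte integrins bind, a classical target of NF-kB (chr19:10271093-10286615, plus strand). It measured 23.3, 22.4, 62.7 and 103 TPM across the CAKi-1 WT replicates and 47.3, 58.9, 52.9, 56.1 and 50.2 TPM across the KO replicates. WT replicates 1 and 2 lay below all KO libraries and WT replicates 3 and 4 above them all, so that the KO group sat inside the WT range. The difference of 0.29 ± 0.41 (SE) did not pass (adjusted p 0.609), with an exact permutation value of 0.5, and its sign turned without WT replicate 2 (-0.0127). The 786O WT replicates measured 67.8, 64.2 and 64.3 TPM, against 40.5, 40.6 and 42.2 TPM in the KO, with no overlap, and the gene fell by 0.66 ± 0.04 (SE) (adjusted p 2.91e-05), with its neighbours unshifted at 0.01.

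RELB encodes the subunit that pairs with the NFKB2 product in the slower, non-canonical branch, and is itself induced by NF-kB (chr19:45001461-45038192, plus strand). It measured 3.31, 4.12, 4.25 and 4.36 TPM across the CAKi-1 WT replicates and 2.20, 1.93, 1.98, 2.83 and 2.17 TPM across the KO replicates. All KO libraries lay below all WT libraries, the direction opposite to that of IL6, NFKBIA, NFKBIZ and LIF in the same cells. RELB fell by 0.64 ± 0.09 (SE) (adjusted p 8.4e-04), with an exact permutation value of 0.00794, and passed without any single CAKi-1 library as well. In 786O the WT values were 2.40, 3.83 and 3.12 TPM, against 2.61, 2.66 and 3.14 TPM in the KO, all KO values within the WT range, and the gene did not pass (-0.10, adjusted p 0.540). Its sign turned under quantile normalization (0.13) and without WT replicate 2 (0.0200). The neighbours of RELB had shifted by -0.42 there, and centred on them its difference was 0.31 (adjusted p 0.0782).

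**Figure D2:**
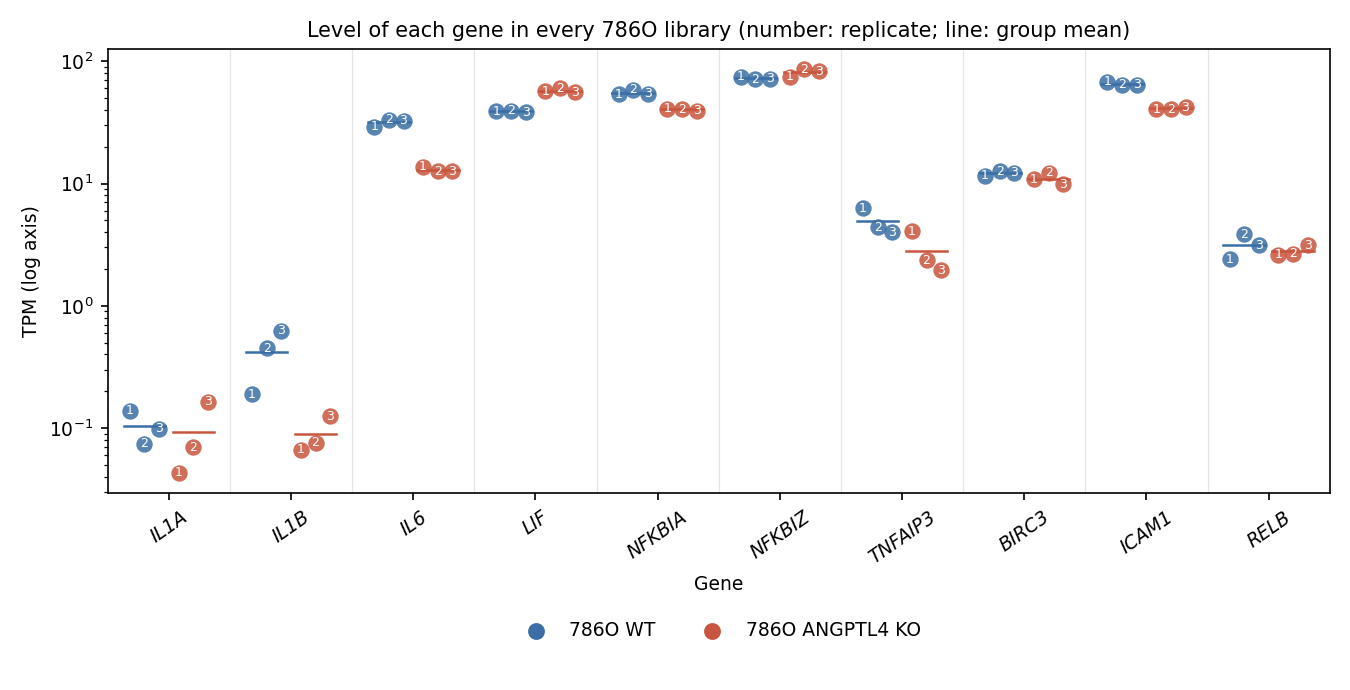
TPM of each of the 10 genes, on a log axis, in every 786O library, with the replicate number in the point and the group mean as a line. The groups of 3 do not overlap for 6 genes: KO lies below WT for IL1B, IL6, NFKBIA and ICAM1, and above it for LIF and NFKBIZ.

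TPM allow the levels of the genes to be ordered within a line. In 786O WT the means ran from NFKBIZ (72.5 TPM) over ICAM1 (65.5), NFKBIA (55.5), LIF (39.0), IL6 (31.6), BIRC3 (12.2), TNFAIP3 (4.90) and RELB (3.12) to IL1B (0.421) and IL1A (0.104), and no neighbours in that order overlapped over the libraries. In CAKi-1 KO the order was NFKBIZ (204 TPM), IL6 (179), NFKBIA (156), LIF (77.2), BIRC3 (71.7), ICAM1 (53.1), IL1A (10.1), TNFAIP3 (9.50), IL1B (5.99) and RELB (2.22). There the ranges of the leading 3 overlapped, as did those of LIF and BIRC3 and those of IL1A, TNFAIP3 and IL1B. In CAKi-1 WT the ranges of the first 6 genes overlapped, yet in each of the 4 libraries NFKBIZ was the highest of the 10 genes and NFKBIA lay above LIF, BIRC3 and ICAM1. IL1A and IL1B ran from 0.696 to 23.7 TPM over the CAKi-1 libraries and stayed under 1 TPM in 786O.

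Whether the effect of the KO differed between the lines was tested with the interaction of line and genotype over the 15247 genes listed for both. It passed for 4 of the 10 genes, against 55.1% of all genes. The log2 fold change in CAKi-1 minus that in 786O was 4.02 ± 1.02 (SE) for IL6 (adjusted p 0.00435), 1.87 ± 0.54 (SE) for NFKBIA (adjusted p 0.00986), 0.97 ± 0.38 (SE) for NFKBIZ (adjusted p 0.0420) and -0.54 ± 0.17 (SE) for RELB (adjusted p 0.0139). IL6 and NFKBIA passed the test in each line with opposite signs, the second with the limit on its sign in 786O given above. The interaction was not fitted to neighbour-centred values, with which NFKBIA was at 0.29 and RELB at 0.31 in 786O. For LIF, which rose in both, the difference was 0.31 with a 95% interval from -0.30 to 0.92, which does not show equal effects. The other 5 genes had differences between 0.64 and 1.34 that did not pass, although IL1B did with a pseudocount of 0.1 (2.73, adjusted p 0.0227). The count was 10 of 10 without CAKi-1 WT replicate 4, against 53.9% of all genes in that fit, since IL1A, IL1B, LIF, TNFAIP3, BIRC3 and ICAM1 passed as well. As that library was the highest WT library for all 10 genes, this larger count carries no weight as a test. The difference of NFKBIZ no longer passed when any 1 of the 786O libraries was left out, nor without CAKi-1 WT replicate 1, 2 or 3 or KO replicate 1 or 4, with differences between 0.74 and 1.01 and adjusted p between 0.0510 and 0.0855. The fit takes a single spread per gene over all groups. For NFKBIZ the standard deviation was 0.70 in CAKi-1 WT, 0.22 in CAKi-1 KO, 0.04 in 786O WT and 0.10 in 786O KO. The losses without a 786O library can therefore not be credited to the 786O values alone.

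**Figure D3:**
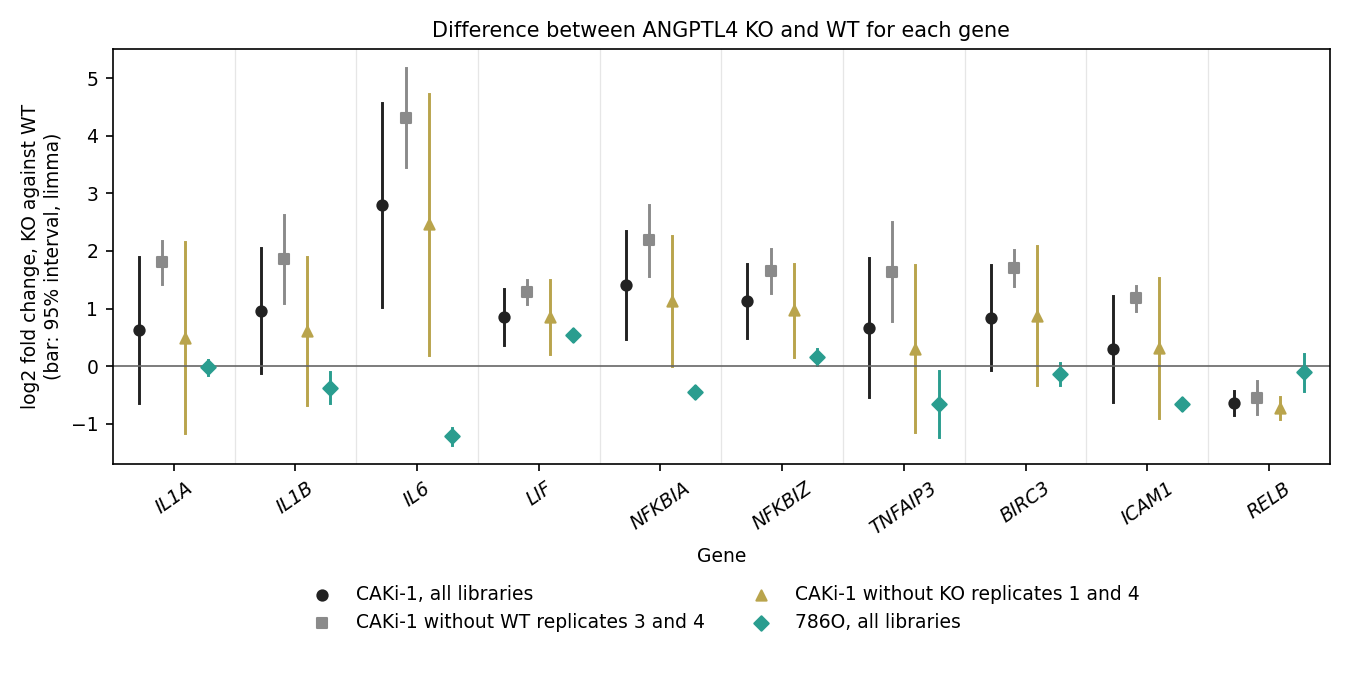
Log2 fold change of KO against WT for each of the 10 genes, with its 95% interval from limma, not adjusted for multiple tests, for CAKi-1 with all libraries, without WT replicates 3 and 4, and without KO replicates 1 and 4, and for 786O. IL6 is at 2.80 in CAKi-1 with a wide interval and at -1.22 in 786O with a narrow one.

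The promoters of the 10 genes were looked up in a RefSeq table (build GRCh38.p14) that gives 250 bases before and 50 after the start of transcription. It had entries for 8 of the 10 genes, 10 entries in all, and none for LIF and RELB. The letters GGGNNTTTCC, a common form of the NF-kB motif chosen after promoters of these genes had been looked at, were found on either strand in 671 of all 35116 promoters of the table, 1.91%. They occurred in promoters of 5 of the 8 genes, IL6, NFKBIA, NFKBIZ, TNFAIP3 and BIRC3, which is a description of these windows and shows no binding. The sequences of IL6 (chr7:22726950-22727249, plus strand), NFKBIA (chr14:35404700-35404999, minus strand), NFKBIZ (the entry at chr3:101827740-101828039, plus strand) and TNFAIP3 (chr6:137867009-137867308, plus strand) are given because the first 3 genes were called in CAKi-1 and the promoter of the other holds the motif 2 times. They run 5' to 3' along the gene, and capitals mark the motif.
IL6: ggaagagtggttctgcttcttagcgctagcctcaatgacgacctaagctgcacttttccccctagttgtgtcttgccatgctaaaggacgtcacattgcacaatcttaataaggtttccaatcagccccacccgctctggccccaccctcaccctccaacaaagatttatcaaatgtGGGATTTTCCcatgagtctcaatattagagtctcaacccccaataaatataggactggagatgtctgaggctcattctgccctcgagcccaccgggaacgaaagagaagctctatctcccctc
NFKBIA: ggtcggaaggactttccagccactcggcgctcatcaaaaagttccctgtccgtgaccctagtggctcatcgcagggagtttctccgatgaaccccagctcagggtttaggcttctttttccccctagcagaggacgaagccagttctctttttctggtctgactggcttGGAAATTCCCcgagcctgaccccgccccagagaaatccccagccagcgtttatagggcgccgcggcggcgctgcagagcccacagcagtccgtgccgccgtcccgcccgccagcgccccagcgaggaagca
NFKBIZ: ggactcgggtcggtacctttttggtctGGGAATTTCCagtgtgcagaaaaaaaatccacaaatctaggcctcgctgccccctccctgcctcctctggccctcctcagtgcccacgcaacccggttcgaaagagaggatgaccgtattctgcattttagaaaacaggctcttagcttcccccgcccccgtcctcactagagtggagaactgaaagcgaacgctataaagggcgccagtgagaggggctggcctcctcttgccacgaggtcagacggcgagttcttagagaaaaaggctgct
TNFAIP3: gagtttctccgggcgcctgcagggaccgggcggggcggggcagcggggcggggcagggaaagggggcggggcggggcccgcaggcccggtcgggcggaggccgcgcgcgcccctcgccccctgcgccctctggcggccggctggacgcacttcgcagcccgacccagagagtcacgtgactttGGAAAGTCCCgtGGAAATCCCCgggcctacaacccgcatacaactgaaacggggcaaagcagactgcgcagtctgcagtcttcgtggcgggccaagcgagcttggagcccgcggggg

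Counted from the start of transcription, the motif lay at -73 to -64 in IL6 and at -223 to -214 in NFKBIZ, read along the gene. It lay on the other strand at -81 to -72 in NFKBIA, at -67 to -58 and -55 to -46 in TNFAIP3, and at -199 to -190 in BIRC3. A further entry of NFKBIZ, both entries of IL1A and those of IL1B and ICAM1 did not hold these letters. Other forms of the NF-kB motif were not searched for, so this does not show that these promoters lack a site. The AP-1 letters TGANTCA, present in 7.71% of all promoters, occurred 2 times in each of the overlapping entries of IL1A and in no other of these windows. The genes with the NF-kB letters included 3 that rose in CAKi-1 and 2, TNFAIP3 and BIRC3, that did not pass there.

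**Figure D4:**
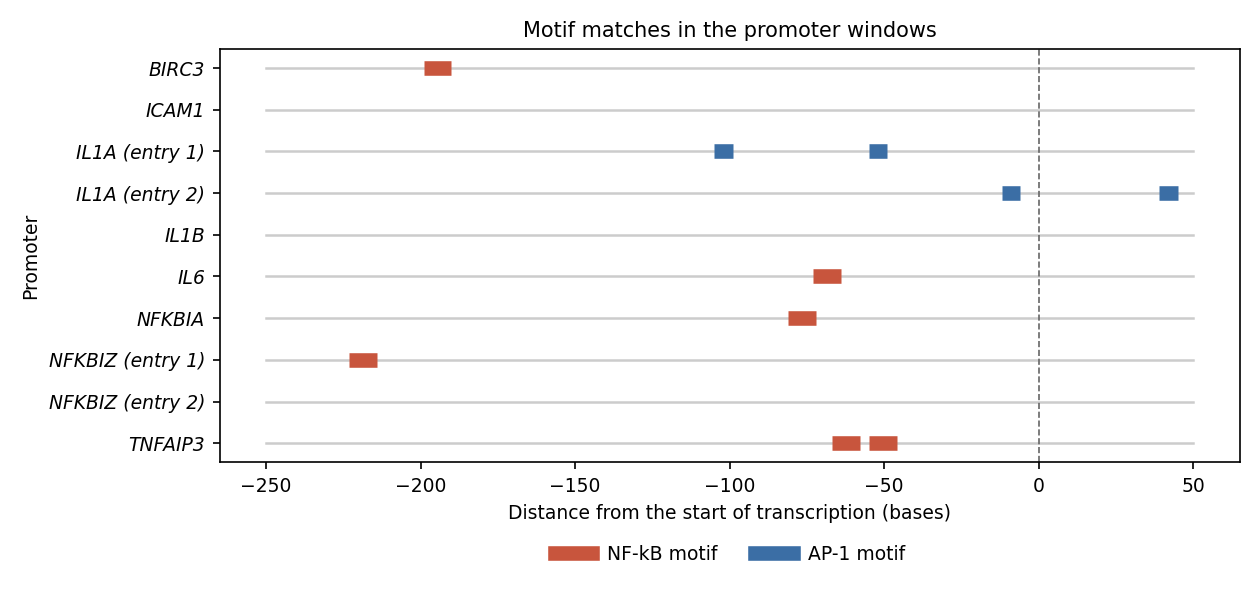
Matches to the NF-kB letters GGGNNTTTCC (red) and the AP-1 letters TGANTCA (blue) in each RefSeq promoter entry of the 10 genes, by distance in bases from the start of transcription. NF-kB matches lie between -223 and -46 in entries of 5 genes, and AP-1 matches only in the entries of IL1A.

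The genes around the circuit were followed in 9 lists that leave out the 10 genes, and their counts are to be read against the 17.9% of all genes that passed higher and 21.1% lower in CAKi-1, and 27.5% and 33.5% in 786O. Among 4 further NF-kB subunits, none passed higher and RELA alone passed lower in CAKi-1, from 73.3 to 58.2 TPM on average (-0.33). There NFKB1 (-0.10), NFKB2 (-0.13) and REL (0.34) did not pass, and the first pair changed sign with neighbour-centred values, NFKB1 also without WT replicate 4 (0.0821). In 786O NFKB1 passed higher (0.17) and RELA (-0.16) and REL (-0.18) lower, REL changing sign under quantile normalization and RELA with neighbour-centred values, while NFKB2 did not pass (0.01). Of a list of 15 further genes, mostly IkB proteins and feedback inhibitors, 1 passed higher and 4 lower in CAKi-1 (median 0.05). In 786O 5 of them passed higher and 5 lower (median 0.04). The 1 that was higher in CAKi-1, ZC3H12A, a nuclease that degrades IL6 mRNA, went from 26.1 to 101 TPM on average (2.36). Leaving out WT replicate 4 turned this balance in CAKi-1 to 4 higher and 2 lower. In 786O BCL3, a nuclear IkB protein, went from 74.9 to 26.5 TPM (-1.46). TNFAIP2, a TNF-induced gene of the list that is neither an IkB protein nor a feedback inhibitor, went from 191 to 93.2 TPM (-1.03). Of 14 IkB kinases and upstream adaptors, none passed higher and 5 lower in CAKi-1 (median -0.08), and 7 higher and 5 lower in 786O (median 0.16).

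On the receptor side, a list of 18 genes held IL-1 receptors, antagonists and adaptors, and also IL18, IL33 and IL36 cytokines, CASP1 and S100A13. Of these 14 were listed for CAKi-1, where none passed higher and 5 passed lower (median -0.13). Among them IRAK1 was at -0.96 and the cytokine IL18 at -0.95. The signalling receptor IL1R1 ran from 9.65 to 11.6 TPM over the CAKi-1 WT libraries and from 11.6 to 21.2 TPM over the KO libraries and did not pass (adjusted p 0.106). In 786O 15 were listed, of which 3 passed higher and 7 lower (median -0.22), and IL1R1 fell from 46.1 to 9.69 TPM (-2.14). The decoy receptor IL1R2 fell there from 19.3 to 5.01 TPM (-1.76), IL18 from 18.2 to 3.38 TPM (-2.14), and the antagonist IL1RN passed higher at 0.0754 and 0.238 TPM. Of 12 ligands and receptors of the IL-6 family, 3 passed higher and 4 lower in CAKi-1 (10 listed, median 0.01), and 2 higher and 5 lower in 786O (11 listed, median -0.17). IL11, like IL6 a ligand that signals through IL6ST, rose from 10.5 to 47.8 TPM in CAKi-1 (2.05) and fell from 23.9 to 1.42 TPM in 786O (-3.37). IL6R, the receptor chain specific to IL-6, fell from 11.1 to 3.34 TPM in CAKi-1 (-1.48) and passed higher in 786O, from 1.73 to 2.56 TPM (0.39). IL6ST passed lower in CAKi-1, with means of 92.2 and 67.9 TPM (-0.44), and did not pass in 786O, with 45.2 and 40.8 TPM (-0.14). LIFR, the receptor of LIF, did not pass in CAKi-1 (0.13, with a sign that turned with neighbour-centred values) and fell from 12.3 to 3.83 TPM in 786O (-1.45).

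Downstream, of 11 genes of JAK-STAT3 signalling and its feedback, 4 passed higher and 3 lower in CAKi-1 (median 0.28), and none higher and 7 lower in 786O (median -0.25). SOCS1, an inhibitor of JAK kinases, rose from 2.91 to 11.1 TPM in CAKi-1 (1.68) and fell from 5.27 to 1.01 TPM in 786O (-1.65). SOCS3, the inhibitor that STAT3 induces, did not pass in CAKi-1 (0.28) and fell in 786O (-0.44). Of 9 TNF ligands and receptors, 1 passed higher and 3 lower in CAKi-1 (7 listed, median 0.01), and 3 higher and 2 lower in 786O (6 listed, median 0.11), with TNFRSF9 lower in both (-1.23 and -1.68). Of 22 other NF-kB target genes, a list that leaves out chemokines, 21 were listed for CAKi-1, where 8 passed higher and 3 lower, with a median of 0.91. That median was near the 0.85 of the 10 genes. It was 1.21 without WT replicate 4, with 13 higher and 3 lower, and 0.48 without KO replicates 1 and 4, with 7 higher and 3 lower. TNFAIP6 (3.26), PTX3 (2.98), CD83 (2.48) and the adhesion molecule VCAM1 (2.24) changed most, VCAM1 from 155 to 696 TPM. In 786O 20 of them were listed, 4 passed higher and 15 lower, with a median of -0.40, and VCAM1 fell from 44.2 to 5.65 TPM (-2.77) while TNFAIP6 rose from 0.593 to 12.5 TPM (3.09). Of 13 AP-1 and immediate early genes, 6 passed higher and 3 lower in CAKi-1 (median 0.29), with FOSL1 at -1.64, and 5 higher and 6 lower in 786O (median -0.09), with FOS falling from 74.7 to 25.7 TPM, FOSB at -1.49 and ATF3 at 1.66.

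**Figure D5:**
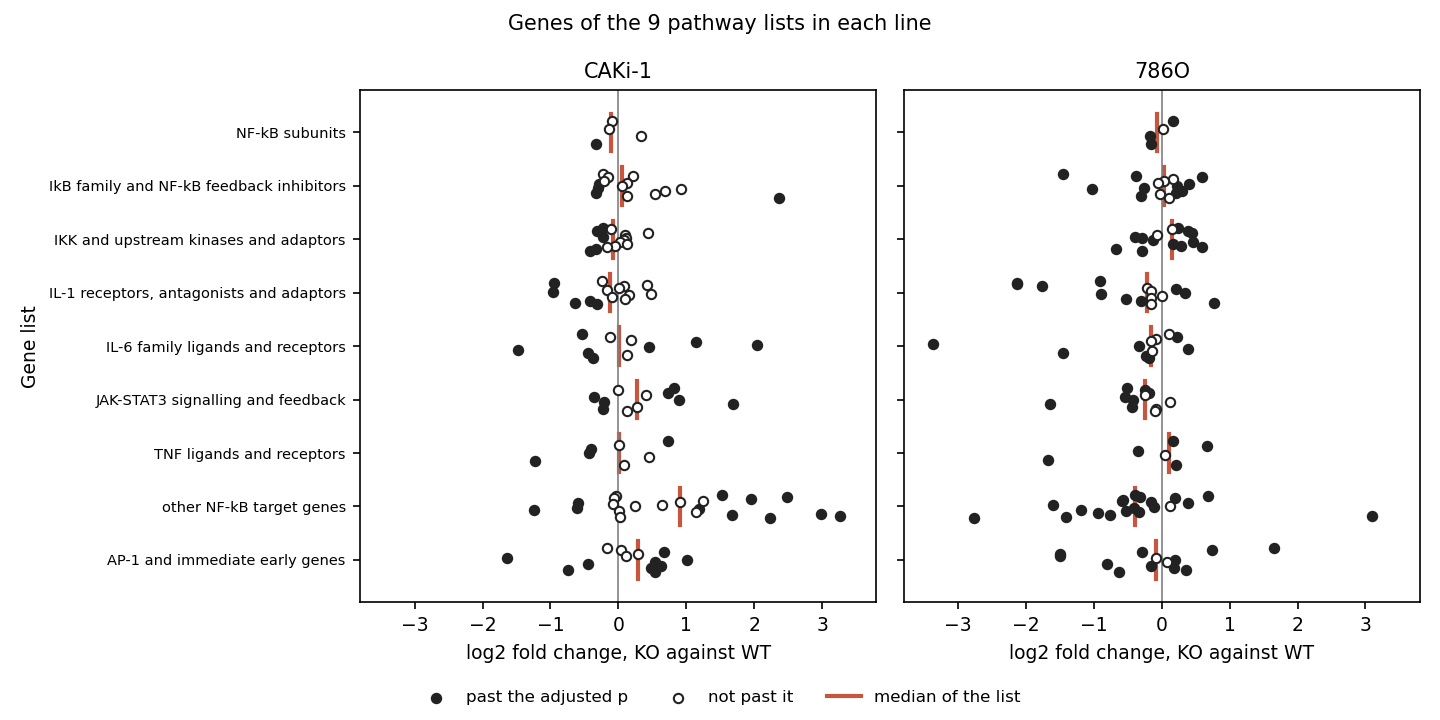
Log2 fold change of KO against WT for each listed gene of the 9 lists in each line, with filled points for genes past the adjusted p of 0.05 and the median of each list as a line. The median of the other NF-kB target genes lies at 0.91 in CAKi-1 and at -0.40 in 786O.

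The genes whose levels within the groups followed IL1B, IL6 and TNFAIP3 most closely were looked up in each line. Pearson's r was taken over the 9 CAKi-1 libraries on deviations of log2(TPM + 1) from the group means, so that the difference between KO and WT is left out, among 12679 expressed genes. The genes most like IL6 were IRAK2 (0.999), NFKBIZ (0.995) and G0S2 (0.991), and those most like IL1B were GDA (0.994), NFKBIA (0.990) and TNFAIP2 (0.989). For TNFAIP3 they were MAP3K8 (0.992), VCAM1 (0.991) and LCN2 (0.990). These values are a description without a test, and they rest on the same high and low WT libraries. Over the 6 libraries of 786O the 3 genes most like each were others: C15orf61, MSX2 and H2AJ for IL6, NOSIP, SRSF3 and PPP1R7 for IL1B, and KCNN4, SLC27A1 and DHX29 for TNFAIP3, with r of 0.992 or more. With so few libraries, the highest r among the 12573 genes compared with IL6 can be this high by chance. IL1B averaged only 0.421 TPM in 786O WT. No difference between the lines is read from these genes.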

How the data were processed

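RNA was sequenced from CAKi-1 and 786O cells of WT and ANGPTL4 KO genotype, and the values in the deposited tables are TPM, made by the authors with Kallisto on hg38 (versions not stated). The unit was read from the values, which sum to between 961437 and 973887 per library, and the filter that removed part of the genes is not described. Each line was fitted with limma 3.58.1 in R 4.3.3 on log2(TPM + 1), with p-values adjusted by Benjamini-Hochberg over all genes of its table, and the interaction over the genes of both tables. Single genes were also tested by exact two-sided permutation of the genotype labels, 11 genes in each line, without adjustment. Named were the 10 genes and ANGPTL4, up to 4 genes with the largest change past the test per list and line, 10 receptors, subunits and inhibitors whatever their values, and the 3 genes most like IL1B, IL6 and TNFAIP3. Alternatives were another pseudocount, a filter on low means, other variance options, other scalings, the replicate number as a block, neighbour-centred values, and libraries left out. Positions came from GENCODE. The code was tested on simulated data. The genes and lists were chosen with earlier results of these data known.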

Additional observations from a re-analysis of the deposited data

Results flagged for a closer look

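Of 28 measures in groups of 4 or 5 libraries, 2 had a library whose gap to the nearest other, as a share of the range of the group, passed the critical value of Dixon's test, which chance passes in about 1 of 20 groups. The mitochondrial share of TPM was lowest in CAKi-1 WT replicate 4 (gap 0.913 of the range), and the sum of TPM was lowest in CAKi-1 WT replicate 3 (gap 0.891 of the range). The effect of the KO differed between the lines for 4 of the 10 genes, against 55.1% of all genes: CAKi-1 minus 786O was 4.02 for IL6, 1.87 for NFKBIA, 0.97 for NFKBIZ and -0.54 for RELB on the log2 scale. The difference of NFKBIZ did not pass when any 1 of the 786O libraries was left out, and none was fitted to neighbour-centred values.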

How the results depend on the processing

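In CAKi-1 5 of the 10 genes passed and 3 were called with the other pseudocount, the filter, the variance options, both scalings and the neighbour-centred values. Leaving out single libraries gave 3 to 8 passing and 1 to 7 called, leaving out KO replicates 1 and 4 gave 2 and 0, and leaving out WT replicates 3 and 4, chosen after seeing the data, gave 10 and 9. In 786O 2 genes were called with a pseudocount of 0.1, against 1, and in place of 5 genes 6 passed with both scalings, 6 of 8 with the filter, which removed IL1A and IL1B, 7 with the variance options and the neighbour-centred values, the latter with IL1A, NFKBIA and BIRC3 turned, and 4 to 6 without single libraries, with 4 without WT replicate 2 or 3 or KO replicate 3. The interaction passed for 5 genes with a pseudocount of 0.1, against 4, for 3 to 10 genes without single libraries and for 9 without WT replicates 3 and 4. Signs turned in CAKi-1 for NFKB2 (0.0207) and NFKB1 (0.0186) and LIFR (-0.17) with neighbour-centred values, for NFKB2 (0.00713) and NFKB1 (0.21) without WT replicates 3 and 4, and without single libraries NFKB1 ran from -0.21 to 0.0821 and ICAM1 from -0.0127 to 0.70. In 786O they turned under quantile normalization for REL (0.0513), IL1A (0.00974) and RELB (0.13), and with neighbour-centred values for RELA (0.0946), NFKB2 (-0.0127), TRAF3 (0.00254), TNFSF15 (-0.0868), IL1A (0.25), NFKBIA (0.29), BIRC3 (0.22) and RELB (0.31). Without single libraries NFKB2 ran from -0.0447 to 0.0491 there, IL1A from -0.0631 to 0.0165 and RELB from -0.23 to 0.0200, and the cause of the turns was not tested. Over all alternatives, 1425 recomputed fold changes of named genes kept their sign and their side of the threshold, 80 no longer passed, 24 newly passed and 22 changed sign, and for the differences between the lines 202 stayed as they were, 13 no longer passed and 13 newly passed. Of the list values recomputed, 59 counts moved and 499 did not, and 33 medians moved and 246 did not. 

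The replicate numbers do not pair the samples: the correlation of WT and KO libraries of the same number was -0.06, 0.12, -0.04 and 0.14 in CAKi-1 and -0.05, 0.02 and 0.01 in 786O, and only CAKi-1 replicate 4 correlated best with its own number. The CAKi-1 replicate block leaves KO replicate 5 without a WT partner, so that fit also loses this library. With the replicate block 5 genes passed and 3 were called in CAKi-1, 6 passed and 1 was called in 786O, where TNFAIP3 was the gene added, and 4 passed the interaction. Over all genes 5609 passed with the replicate block in CAKi-1, against 6510 without KO replicate 5 alone, and 9312 in 786O. 

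With 4 against 5 and 3 against 3 libraries, all from mixed clones except CAKi-1 WT, on which the sources differ, the differences are those of these cell preparations, and the editing, the choice of clones and the culture cannot be told apart. A pseudocount of 0.1 in place of 1 raised the genes called over the whole table from 543 to 1077 in CAKi-1 and from 1233 to 2095 in 786O, and at the stated depth IL1A and IL1B are the least precise of the 10 genes in 786O. In CAKi-1 the calls hang on single libraries: IL6 was not called without WT replicate 2, NFKBIA without WT replicate 1 or 2 or KO replicate 1 or 4, and NFKBIZ without WT replicate 1, and none without KO replicates 1 and 4 together, while each stayed called without WT replicate 4.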
